A study of Drosophila melanogaster with 4 samples.

Results

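Forkhead proteins are transcription factors that bind DNA through a winged-helix domain named after fork head (fkh) of Drosophila. The family sets organ identity in the embryo, as fkh does in the salivary gland and biniou (bin) in the visceral mesoderm, and it carries hormonal signals, as foxo does downstream of the insulin receptor. Many forkhead proteins recognise the core word TGTTTAC or close relatives of it. The 9 genes described here are fkh, croc, bin, jumu, foxo, CHES-1-like, FoxP, FoxK and FoxL1, out of 13945 protein-coding genes on the 6 chromosome arms X, 2L, 2R, 3L, 3R and 4. They are 9 of the 18 forkhead family genes looked at here, picked with earlier results of these data known, so their shares do not stand for the family. Each was followed through every call at its transcription start sites (TSSs), in its body and within 10 kb of it. Of all 5211 peaks in the final list of the study, 35 had their summit, the position of highest signal, in 1 of these genes or within 10 kb of it.

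The measurement was chromatin immunoprecipitation followed by sequencing (ChIP-seq) of CG1233, a Drosophila protein carried by a transgenic line as a stable C-terminal GFP fusion. The strain is CG1233-GFP. Whole embryos, pooled over both sexes and aged 0 to 24 h, gave the chromatin, which was sonicated to fragments of 200 to 800 bp. There were 4 biological replicates of this 1 group, so the data hold no treatment, genotype or stage contrast. The promoter that drives the fusion, and whether untagged CG1233 remained, are not given in the sources used here, and a whole embryo mixes all its cell types.

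The labels contradict each other. Their free text names each sample an input control, but CG1233 stands as the antibody and the assay title is that of a transcription factor ChIP-seq. The lists were read as ChIP calls. The 4 replicate lists and the list called on the pooled replicates held 30000 calls each, weak ones included, and the optimal list of 5211 peaks left by the authors' reproducibility filter was the 5211 strongest pooled calls. A rank of 1 is the highest signal in a list, and ranks are the only use made of signal. A call of a replicate is named strong here when it is among the 5211 strongest of that replicate, and a replicate holds an optimal peak when the summit of a strong call lies inside it. The lists carry no read counts, so the depth behind each replicate is unknown. Intervals below are exact (Clopper-Pearson) at 95%, treat the genes or summits counted as independent, and cover counting error only.

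Sequences around the leading summits differed in composition from gene to gene. The windows of 101 bp around the strongest summit of 7 of the genes, and around 2 more of the strongest CHES-1-like summits, are shown because they are the DNA at the centre of the calls that the results turn on. They are from the dm6 assembly, plus strand, and none contains annotated UTR or coding sequence. Capitals mark TGTTTAC or TATTTAC, or their reverse complements GTAAACA and GTAAATA. The CHES-1-like windows of rank 319 and 503 hold TATTTAC, while that of rank 383, which holds neither word, is not printed. The printed windows therefore do not show how common these words are.
fkh rank 276, chr3R:28585456-28585556: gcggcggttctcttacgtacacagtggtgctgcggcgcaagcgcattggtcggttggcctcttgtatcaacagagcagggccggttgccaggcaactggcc
bin rank 422, chr3L:6989209-6989309: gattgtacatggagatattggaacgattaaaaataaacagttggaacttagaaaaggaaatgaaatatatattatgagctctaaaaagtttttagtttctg
jumu rank 1190, chr3R:10357026-10357126: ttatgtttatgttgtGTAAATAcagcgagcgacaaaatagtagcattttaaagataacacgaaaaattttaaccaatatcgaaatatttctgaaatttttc
foxo rank 309, chr3R:14053555-14053655: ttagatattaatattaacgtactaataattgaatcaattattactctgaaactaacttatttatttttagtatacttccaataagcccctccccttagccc
CHES-1-like rank 124, chrX:7706936-7707036: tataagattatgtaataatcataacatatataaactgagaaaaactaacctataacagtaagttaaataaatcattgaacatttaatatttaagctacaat
CHES-1-like rank 319, chrX:7698389-7698489: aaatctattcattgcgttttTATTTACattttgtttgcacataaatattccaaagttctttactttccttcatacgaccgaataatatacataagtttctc
CHES-1-like rank 503, chrX:7697038-7697138: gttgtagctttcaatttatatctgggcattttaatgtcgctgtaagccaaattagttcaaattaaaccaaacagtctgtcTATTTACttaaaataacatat
FoxK rank 475, chr3L:11118795-11118895: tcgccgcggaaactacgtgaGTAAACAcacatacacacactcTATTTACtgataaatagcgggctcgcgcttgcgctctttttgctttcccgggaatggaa
FoxL1 rank 2101, chr3L:4016931-4017031: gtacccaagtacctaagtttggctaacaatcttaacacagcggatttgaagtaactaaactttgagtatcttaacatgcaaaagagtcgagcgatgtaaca
The windows ran from 37.6% A and T at fkh to 81.2% at the rank-124 summit of CHES-1-like. The longest run of A and T alone was 3 bp in the fkh window and 13 bp in the windows of bin, foxo and CHES-1-like rank 124.

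Summits lay at the start sites of 4 of the 9 genes, in the body of 4, and within 10 kb of 8. The TSS share, counting any annotated TSS within 500 bp of an optimal summit, was 44.4% (13.7 to 78.8%), against 19.9% of all protein-coding genes, a value inside the interval. The 4 genes were fkh, foxo, CHES-1-like and FoxK. None of their summits came within 200 bp of a TSS, so the count at that window was 0 of 9, against 13.7% of all protein-coding genes. A summit in the gene body was found for jumu, foxo, CHES-1-like and FoxK, 44.4% (13.7 to 78.8%), against 13.2% of protein-coding genes, just below the interval. Counting the 10 kb on either side gave every gene but FoxP, 88.9% (51.8 to 99.7%), against 64.3%, again inside the interval. In the longer pooled list 7 of the 9 had a call at a TSS (77.8%, 40 to 97.2%), against 47.8%.

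Over the whole family the shares at the TSS and within 10 kb were near those of all protein-coding genes. The 9 further forkhead genes, which were not selected, are fd3F, fd19B, fd59A, fd96Ca, fd96Cb, fd102C, CG32006, slp1 and slp2, and 0 of them had an optimal summit at a TSS or in the gene. With 3 counts as the limit that a count of 0 allows, 0 of 9 allows a share of up to 33.3%, an approximate limit unlike the exact intervals. Over all 18 family genes the share with a TSS summit was 22.2% (6.41 to 47.6%), and the share with a summit within 10 kb was 61.1% (35.7 to 82.7%), beside the 19.9% and 64.3% of all protein-coding genes. The share with a summit in the gene was 22.2% (6.41 to 47.6%), beside 13.2%. The 3 further genes with a summit within 10 kb were fd3F, with 1 of rank 4945, and the neighbouring segmentation genes slp1 and slp2, which shared the same 2 summits, the stronger of rank 209. Gene length also differed, with a median of 4853 bp over the 9 genes and 2166 bp over all protein-coding genes. Its part in the counts of summits in the gene was not tested.

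**Figure D1:**
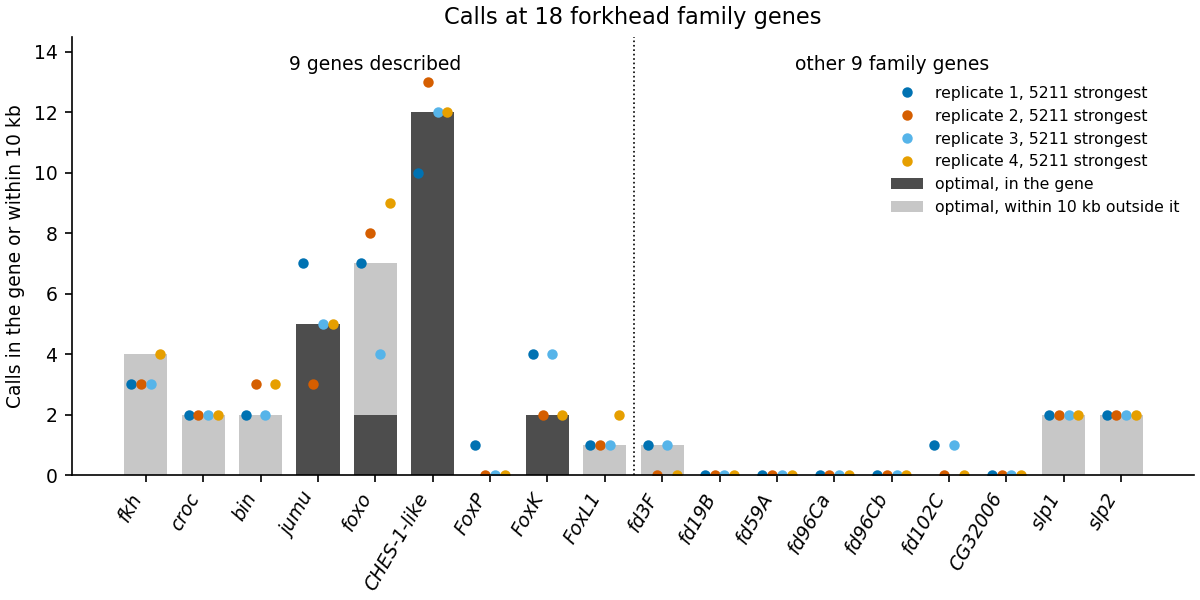
Calls in each of 18 forkhead family genes or within 10 kb of it (y axis, number of calls). Dark bars count optimal summits in the gene and light bars those outside it, and the 4 points are the strong calls of the 4 replicates. CHES-1-like had 12 optimal summits and 10 to 13 strong calls per replicate, while slp1 and slp2 share the same 2 summits.

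The same counts were taken in each replicate. In replicates 1, 2, 3 and 4 a strong call at a TSS was found for 5, 4, 3 and 4 of the 9 genes (4 ± 0.816, SD, n = 4). The same rule called 19.7%, 19.2%, 20.2% and 19.8% of all protein-coding genes in replicates 1, 2, 3 and 4. The strong calls in the 9 genes or within 10 kb of them numbered 37, 35, 33 and 39 (36 ± 2.58, SD, n = 4), of which 4, 2, 3 and 5 had their summit outside every optimal peak. The share of all strong calls outside the optimal peaks was not computed, so these counts cannot be set against the genome.

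**Figure D2:**
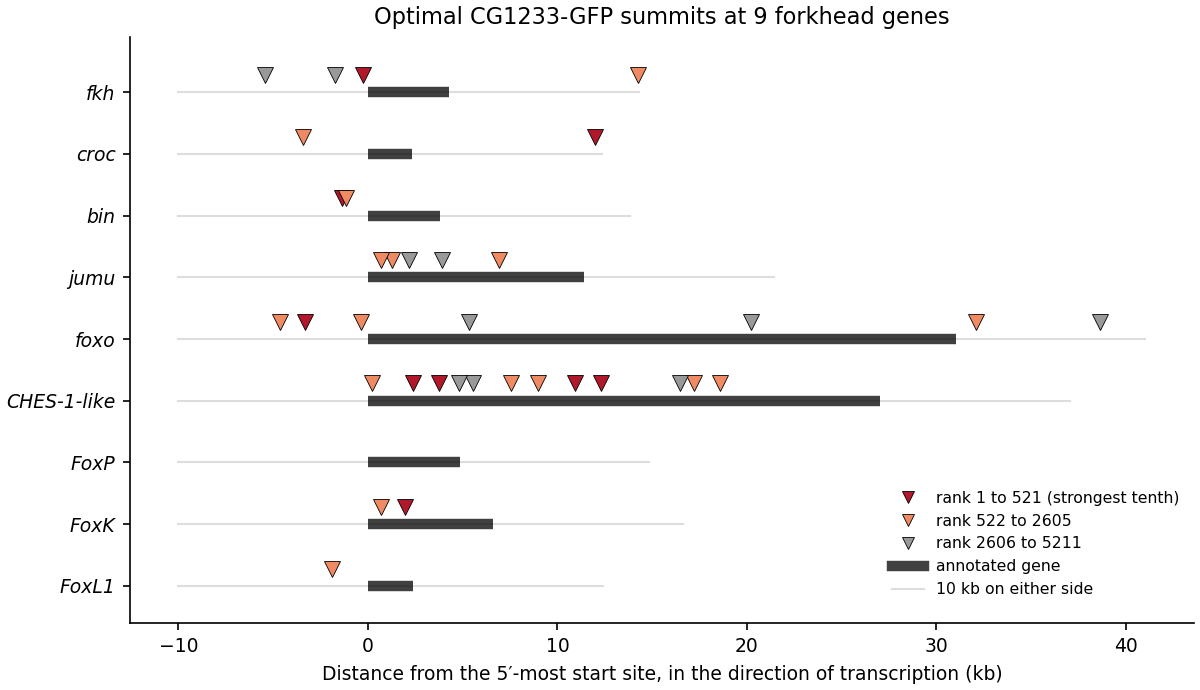
Optimal summits (triangles) at the 9 genes, by distance from the 5′-most start site in the direction of transcription (x axis, kb). Black bars are the annotated genes, grey lines the 10 kb on either side, and the colour gives the rank class. The summits of jumu, CHES-1-like and FoxK lay inside the genes, those of fkh, croc, bin and FoxL1 outside, and foxo had both kinds.

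The organ-identity gene fkh (FBgn0000659, chr3R:28580976-28585264, minus strand) carried the strongest start-site summit of the 9 genes. Its summit of rank 276 lay 242 bp upstream of the nearest fkh TSS, in the GC-rich window printed above. The same summit lay 542 bp upstream of the TSS of the noncoding gene lncRNA:CR43126. The call there ranked 284, 538, 138 and 265 in replicates 1, 2, 3 and 4. All 4 replicates thus held it in the strongest 538 of their calls. The summits of rank 4458 and 3792 lay 1723 and 5446 bp upstream of the gene, both in an exon of the long noncoding RNA gene lncRNA:CR43126, and 3 replicates held each of them. A further summit, of rank 2172 and held by all 4, lay 9986 bp beyond the 3′ end, just inside the 10 kb limit.

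The head patterning gene croc (crocodile, FBgn0014143, chr3L:21474133-21476479, minus strand) and the visceral mesoderm gene bin (FBgn0045759, chr3L:6990622-6994447, plus strand) each had 2 summits, all intergenic and all held by the 4 replicates. The leading croc summit, rank 396, lay 9627 bp beyond the 3′ end of the gene, and croc was still the nearest gene by TSS, at 11973 bp. The call there ranked 437, 430, 173 and 648 in replicates 1, 2, 3 and 4. The other croc summit, rank 1647, was 3413 bp upstream of the TSS and ranked 1210, 1555, 1700 and 2779 in those replicates. At croc, then, replicate 3 gave the strongest rank at the distal site and replicate 4 the weakest at both.

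The 2 bin summits, of rank 422 and 720, were only 200 bp apart, 1363 and 1163 bp upstream of the TSS. In replicates 1, 2, 3 and 4 the first ranked 861, 442, 1206 and 269. The second ranked 1743, 919, 1789 and 1328 in that order. Each replicate placed the distal summit above the proximal one.

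FoxL1 (FBgn0004895, chr3L:4018878-4021279, plus strand), which acts on the placement of the embryonic salivary gland, had 1 summit, of rank 2101, 1897 bp upstream of its 5′ end. It ranked 2699, 2149, 3695 and 2489 in replicates 1, 2, 3 and 4, so all 4 held it in the middle of their strong calls. Its start site carried only a pooled call of rank 19782, below the optimal list.

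The gene jumu (jumeau, FBgn0015396, chr3R:10350182-10361612, plus strand) acts in neural and heart progenitors, as does its relative CHES-1-like in the heart. All 5 of its summits were intronic, of rank 1190, 1435, 1765, 4344 and 4639, at 6894, 1269, 714, 3924 and 2178 bp downstream of the TSS. Among all protein-coding genes 0.76% had 5 or more summits in the gene, and among the 1732 genes at least as long as jumu 5.95% did. The call at the rank-1190 summit ranked 1451, 1335, 1564 and 926 in replicates 1, 2, 3 and 4. The rank-1765 summit was less even, at 944, 1760, 974 and 3994. Replicate 1 had 7 strong calls within 10 kb of jumu, replicate 2 had 3, and replicates 3 and 4 had 5 each. The TSS itself carried a strong call in replicate 1, of rank 3264, where the pooled rank was 10713.

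CHES-1-like (FBgn0029504, chrX:7682338-7709385, minus strand) held more summits than any other of the 9 genes. All 12 were inside the gene, of rank 124, 319, 383, 503, 547, 618, 1740, 1889, 2565, 3210, 4084 and 4858. As many in the gene were found in 7 of the 13945 protein-coding genes (0.0502%) and in 7 of the 744 genes at least as long (0.941%). The 4 replicates had 10, 13, 12 and 12 strong calls in it (11.8 ± 1.26, SD, n = 4).

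The CHES-1-like summits were spread over 18344 bp of the 27048 bp gene, with gaps of 718 to 4193 bp and a median gap of 1377 bp. The annotation gives this gene 4 start sites, at 0, 4422, 12681 and 14467 bp from the 5′-most one. Summits of rank 618, 4858 and 503 were within 500 bp of the first, the next and the third of these, at distances of 223, 399 and 384 bp. The other 9 were intronic, and the last lay 18567 bp from the 5′-most TSS. The stretch from there to the 3′ end carried no optimal summit.

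The strongest CHES-1-like summit, rank 124, lay in an intron and was also the strongest among the 35. Its nearest TSS was that of the noncoding gene lncRNA:CR43287, at 789 bp, while the nearest CHES-1-like TSS was 2023 bp away. In replicates 1, 2, 3 and 4 this summit ranked 79, 135, 115 and 145, a mean of 118.5 ± 29.1 (SD). The summit of rank 319 ranked 476, 240, 484 and 316, and that of rank 383 ranked 459, 467, 595 and 291. For these 3 the replicates stayed inside the strongest 595 calls. The weaker summits varied more, and 5 of the 12 were held by 3 replicates only. The summit of rank 1889, for example, ranked 3429, 1655, 23231 and 1294, and that of rank 3210 ranked 10684, 3332, 1621 and 3495. At rank 4084 replicate 4 had no call inside the peak at all.

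**Figure D3:**
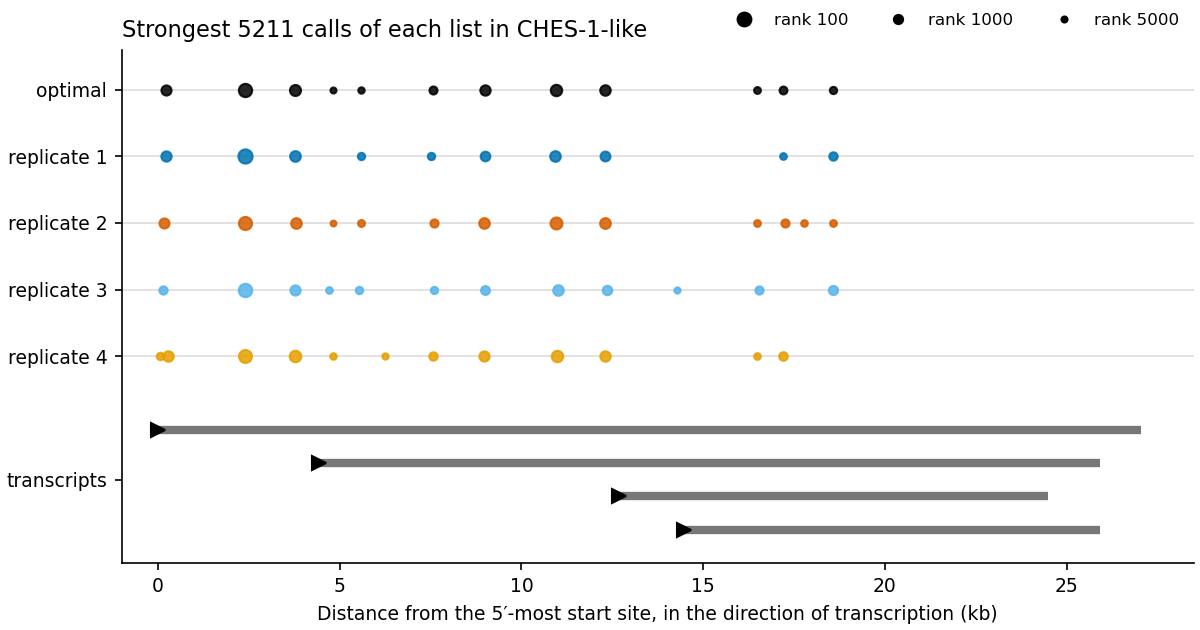
The 5211 strongest calls of the optimal list and of each replicate inside CHES-1-like, by distance from the 5′-most start site (x axis, kb), larger points for stronger ranks. Grey bars are the 4 annotated transcripts with an arrowhead at each start. The optimal calls, 12 in all, ended at 18567 bp, and the strong calls of the replicates fell at nearly the same places, with 1 call outside the optimal peaks in each of replicates 2, 3 and 4.

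The insulin effector gene foxo (FBgn0038197, chr3R:14056945-14087978, plus strand) had 7 summits, 2 of them inside its 31034 bp and 5 outside. As many within 10 kb were found for 196 protein-coding genes (1.41%). Its 2 summits in the gene were matched or exceeded by 37.3% of the 640 genes at least as long. The strongest, rank 309, was intergenic, 3340 bp upstream of the gene, and ranked 229, 304, 333 and 415 in replicates 1, 2, 3 and 4. All 4 replicates thus placed it near the same rank. Upstream of the gene there were also summits of rank 1283, at 4615 bp, and rank 1187, at 366 bp from the TSS.

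The foxo start-site summit ranked 2050, 1341, 4803 and 532, an uneven set that counts as held by all 4. In replicates 1 and 3 those calls lay at -128 and -144 bp from the optimal summit, and the calls within 100 bp of it ranked 6030 and 21033, outside the strong calls. At the rank-1283 summit replicates 1, 2 and 4 ranked 1847, 1019 and 917, while replicate 3 ranked 7649 and did not hold it. The 2 intronic summits, of rank 3431 and 3621, were each held by 3 replicates. Replicate 3 held neither, but had a call inside each peak, of rank 5283 and 18048, outside its strong calls. Replicate 3 had 4 strong calls within 10 kb of foxo, against 7, 8 and 9 in replicates 1, 2 and 4. The summits on the 3′ side belong by position to neighbours as much as to foxo. That of rank 2385 lay 465 bp from the TSS of Npc2b, which encodes a sterol-binding protein, and that of rank 3533 lay in an intron of the neuropeptide gene CCHa1.

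FoxK (FBgn0036134, chr3L:11114169-11120783, minus strand), which takes part in midgut differentiation, had 2 summits, both in the gene and each near 1 of its 4 start sites. As many in the gene were found in 21.6% of the 2739 genes at least as long. The stronger, rank 475, lay 379 bp from a TSS and ranked 195, 658, 382 and 864 in replicates 1, 2, 3 and 4. The weaker, rank 2243, lay 345 bp from another TSS and ranked 860, 3313, 589 and 2664. In replicate 1 the rank-860 call lay 159 bp from the weaker summit, and its call within 100 bp ranked 2713. The window at rank 475 was the 1 window of the 35 with both forkhead words.

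FoxP (FBgn0262477, chr3R:9726020-9730872, minus strand), which acts in neurons and in decision making of the adult fly, had no optimal summit within 10 kb. Its 4 pooled calls were weak, the strongest of rank 9930 at -9361 bp from its TSS. The best calls of the replicates ranked 2690, 9682, 11852 and 14929, so replicate 1 alone had a strong call there. That call lay outside the gene at the start site of a neighbour, and the pooled list had no call at its position.

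The longer pooled list added weak calls around every gene. It held 123 calls in the 9 genes or within 10 kb of them, the optimal 35 included. Pooled calls within 10 kb were not counted over all genes, so this number does not set the 9 apart. The most were at foxo with 31, CHES-1-like with 25 and fkh with 14, followed by FoxK with 11, bin and FoxL1 with 10 each, croc and jumu with 9 each, and FoxP with 4. These weak calls reached the start sites of 3 genes that had no optimal summit there. At jumu the pooled call 23 bp downstream of the TSS ranked 10713, at FoxL1 the call at -335 bp from the TSS ranked 19782, and at croc the stronger of 2 ranked 26361.

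Strong calls that appeared outside the optimal peaks were mostly seen in 1 replicate. Those near bin, of rank 3990 in replicate 2 and 4461 in replicate 4, lay at 1 shared site whose pooled call ranked 6123, at the start site of a neighbour. A like pair near FoxK, of rank 3497 in replicate 1 and 4517 in replicate 3, met at a pooled call of rank 6323. Inside CHES-1-like, replicate 3 had a strong call of rank 4378 near the fourth start site, where the pooled rank was 15283.

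Every summit at the 9 genes was held by 3 or 4 replicates, counting strong calls anywhere inside the peak. Of the 35, 23 were held by all 4 replicates (65.7%, 47.8 to 80.9%), against 48.2% of all optimal peaks, just inside the interval. The other 12 were held by 3 (34.3%), against 24.4%. Of all optimal peaks 21.3% were held by 2, 5.8% by 1 and 0.326% by none. The interval treats the 35 as independent, though 12 of them lie in CHES-1-like. Asking for a strong call within 100 bp of the optimal summit left 21 held by all 4. The summits of rank 4458 at fkh, 4639 at jumu, 1187 at foxo and 4858 at CHES-1-like were then held by fewer than 3. That stricter count was not taken over all optimal peaks. Replicates 1, 2, 3 and 4 held 32, 33, 30 and 33 of the 35, a mean of 91.4% ± 4.04, against 78.6% ± 7.97 of all optimal peaks (SD, n = 4 each). The share was the higher of the pair in each of the 4 replicates. The 35 also had a median rank of 1740, against 2606 for the whole list, with 9 of the 35 (25.7%) among its 521 strongest peaks. The part of rank in the shares held was not tested. A call of any strength lay inside the peak in all 4 replicates for 34 of the 35, against 88% of all optimal peaks. The replicate summit was at most 25 bp from the optimal one in 93 of 139 cases (66.9%), with a median of 15 bp and a largest distance of 190 bp. These distances were not computed for all optimal peaks, so they are not a trait shown for these genes.

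**Figure D4:**
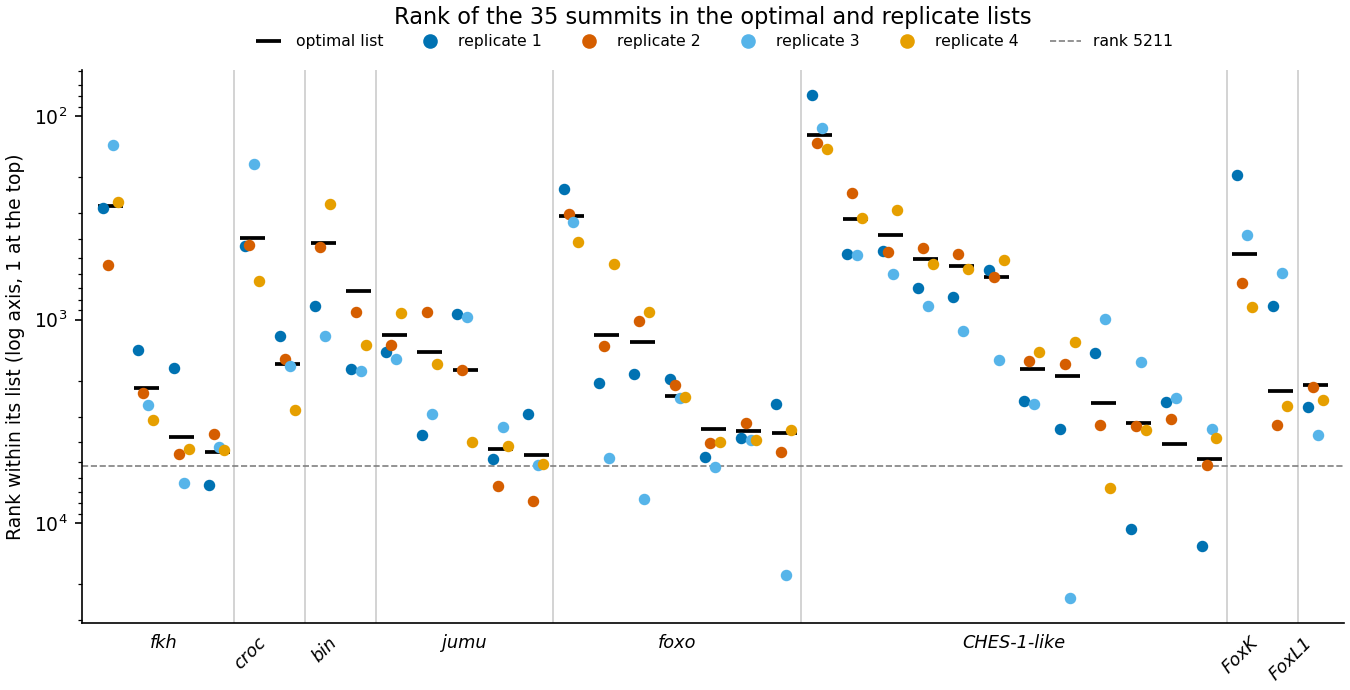
Rank of each of the 35 summits in the optimal list (black dash) and in the 4 replicates (points), on a log axis with rank 1 at the top, grouped by gene and ordered by optimal rank. The dashed line at rank 5211 is the limit of the strong calls. The 4 strongest CHES-1-like summits and the leading foxo summit stay close together, while single replicates fall below the line at weaker summits, such as replicate 3 at 3 foxo summits and at the rank-1889 CHES-1-like summit, and replicate 1 at the CHES-1-like summits of rank 3210 and 4858.

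By position, 17 of the 35 summits were intronic (48.6%, 31.4 to 66%), against 36.9% of all optimal peaks. A further 8 (22.9%) were intergenic, against 13.6%, and 8 (22.9%) were within 500 bp of a TSS of any gene, against 46.5%. The remaining 2 lay in exons of lncRNA:CR43126, and none was in coding sequence or a UTR. CHES-1-like and jumu gave 14 of the 17 intronic summits, so these shares rest on few genes. Of the 14 summits outside the 9 genes, 10 were on the 5′ side and 4 on the 3′ side.

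The DNA at the summits was rich in A and T. The median over the 35 windows of 101 bp was 70.3%, with a range of 37.6 to 81.2%, against 66.3% for all optimal peaks. Windows 500 bp away on both sides had medians of 61.9% for the 35 and 56.4% for all. The summit exceeded its own flanks in 25 of the 35 and in 3868 of the 5211. The fkh start-site summit, at 37.6%, was the least A- and T-rich of the 35, as its printed window shows.

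The search for forkhead words covered the 50 bp on either side of every summit and both strands. TGTTTAC occurred at 3 of the 35 summits (8.57%, 1.8 to 23.1%), those of rank 475 at FoxK, 1765 at jumu and 4858 at CHES-1-like, against 5.8% of all optimal peaks. TATTTAC occurred at 6 (17.1%), at fkh, croc, jumu, FoxK and, at 2 summits, CHES-1-like, against 7.27%. The pooled calls below the optimal list had these words at 3.28% and 3.73%. No interval was computed for the TATTTAC share. That word is rich in A and T, and the windows of the 35 had a median of 70.3% A and T against 66.3% for all optimal peaks. The part of composition in the share was not tested. Of the other words searched, TATCGATA, GGTCACACT, CATCNCTA and CACGTG occurred at 0 of the 35, against 1.3%, 0.614%, 1.3% and 0.729% of all optimal peaks in that order. GAGAGAG, CACACACA, ATATATAT and CAGCTG each occurred at 1, against 1.23%, 2%, 2.63% and 3.88%. Overlaps between matches of 1 word were counted once per summit, and a match is a run of letters, not a shown binding site.

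Genes that work with 3 of these factors were followed in the same peak lists. The 3 gene lists were chosen with earlier results of these data known, so their shares do not stand for the pathway or the organs. Of 14 genes listed under insulin signalling, not all of them upstream of foxo, 9 (64.3%) had an optimal summit at a TSS, against the 19.9% of all protein-coding genes. Among them were the receptor gene InR (rank 1931), the kinase genes Pdk1 (4150), sgg (411) and S6k (4453), the kinase subunit genes Pi3K92E (3203) and Pi3K21B (614), the foxo target Thor (1566), and Sesn (252). All 4 replicates held a TSS summit of the genes InR, Pi3K21B, sgg and Sesn. The other 5 genes, chico, Akt, gig, Tsc1 and Rheb, had none at a TSS, and of these only gig had none within 10 kb either. At a window of 200 bp the count over the 38 genes of all 3 lists fell from 13 to 6, beside 13.7% of all protein-coding genes.

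The lists of the organ-identity factors were near the share of all genes at the TSS. Of 12 salivary gland genes, which include sage and Scr that act with or upstream of fkh, 2 (16.7%) had a TSS summit. These were CrebA (rank 1732), which drives secretory genes, and trh (rank 72), which sets tracheal and salivary duct fate. Of 12 visceral mesoderm genes, 2 (16.7%) had one, tin (rank 458) and org-1 (rank 349), both transcription factor genes of the mesoderm. All 4 of these summits were held by all 4 replicates. A summit in the gene was found for 4 of the 12 salivary gland genes (33.3%) and 6 of the 12 visceral mesoderm genes (50%), against the 13.2% of all protein-coding genes, and for 8 of the 14 insulin genes (57.1%). The median gene length was 5192 bp in the salivary gland list, 32800 bp in the visceral mesoderm list and 6898 bp in the insulin list, beside 2166 bp over all protein-coding genes, and the part of length in these counts was not tested.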

How the data were processed

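The authors deposited, for CG1233-GFP embryos, a peak list per replicate, a pooled list and an optimal list on dm6; per the text files deposited with them, each list was called against 1 shared control, and the optimal list comes from an irreproducible discovery rate step. The aligner, peak caller and versions are not given in the sources used here. The signal values that the authors deposited are coverage scores of their caller, and served only to rank calls within a list. The deposited −log10 q column was used in alternatives only. Genes and TSSs came from Ensembl 115 and sequences from the RefSeq dm6 genome, after arm lengths were checked against the calls. Placement was tested on simulated calls (Python 3.11.15, NumPy 2.4.6, SciPy 1.17.1, matplotlib 3.10.9). No hypothesis test was run apart from Dixon's outlier rule, which served only to flag single replicates. The 9 genes and the lists were chosen with earlier results of these data known. The text otherwise names all 9 genes, list genes with a TSS summit, and genes whose TSS lies within 500 bp of a summit described; genes of small classes were named after their values were seen. In the lists, duf was matched to kirre by a RefSeq synonym, and Tor was not matched. The result for 1 list gene and 1 summit sequence are not reported here. Window, distance, strength and replicate choices were varied.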

Additional observations from a re-analysis of the deposited data

Results flagged for a closer look

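Across the 4 replicates, the count of strong calls per gene and the rank at each summit gave 43 groups of 4 values. In 5 of the 34 groups of ranks 1 replicate stood apart by more than Dixon's critical value for 4 samples at 95%. That value sets about 1 in 20 groups apart by chance where values are independent and normally distributed. Ranks are skewed and the summits share the same 4 replicates, so that rate cannot be used to judge the 5 of 34. In 3 of the 9 groups of counts 1 replicate differed from 3 equal ones, which passes the critical value by a single call, so the rate does not apply to the counts either.

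In 4 groups that was replicate 3 with a weaker rank. At foxo it ranked 7649 at the rank-1283 summit, against 1847, 1019 and 917 in replicates 1, 2 and 4, and 18048 at the rank-3621 summit, against 2604, 4496 and 3474. At CHES-1-like it ranked 1576 at the rank-618 summit, against 569, 615 and 509, and 23231 at the rank-1889 summit, against 3429, 1655 and 1294. Replicate 3 also held the fewest of the 35 summits, 30, and of all optimal peaks, 69.7%. These counts rest on a limit set by rank. Calls with -log10 q above 2 numbered 6697, 4575, 10424 and 5400 in replicates 1, 2, 3 and 4, the most in replicate 3. With those calls in place of the strong ones, all 4 replicates held 27 of the 35 summits instead of 23. The part of replicate 3 in these ranks was not tested.

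At the rank-3533 summit near foxo replicate 2 ranked 3240, against 3810, 3891 and 3912 in replicates 1, 3 and 4. The groups of counts differed by 1 call each. There were 4 strong calls within 10 kb of fkh in replicate 4 against 3 in each other replicate, but replicate 2 held the same 4 summits and 1 of its calls lay at 10008 bp, just past the limit. There was 1 at FoxP in replicate 1 against 0, and 2 at FoxL1 in replicate 4 against 1.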

How the results depend on the processing

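Of 97 alternatives over 13 results, 78 stayed within 1.5 times the reported count, or within the spread of the replicates for a share or median rank, and 19 did not; the cause was not tested. A promoter window of 200 bp gave 0 of the 9 genes with a TSS summit instead of 4, and 6 of the 38 genes of the insulin, salivary gland and visceral mesoderm lists instead of 13. Of all protein-coding genes 13.7% had a summit at 200 bp, against 19.9% at 500 bp. Only the peaks held by all 4 replicates left 23 of the 35 summits, 9 of the 17 intronic ones and 8 of the 13 list genes. The stronger part of the optimal list left 10 intronic summits. Leaving out each replicate in turn, and asking that the other 3 hold the peak, left 10 to 12 intronic summits and 8 to 9 list genes. A distance of 20 kb gave 190 pooled calls instead of 123, a held share of 85.33% instead of 91.4%, a median rank of 2136 instead of 1740, and 6 further family genes instead of 3. Counting all replicate calls gave a held share of 99.29%, and asking for a replicate summit within 100 bp gave 87.14%. Ranking by q-value gave a median rank of 1470. TGTTTAC occurred at 1 summit with a window of 25 bp instead of 3 with 50 bp, and TATTTAC at 6. No paired analysis was possible because the design has 1 group. The depth of the lists is unknown, and the optimal list is not independent of the replicates it was made from.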
